A study of Rattus norvegicus with 2 samples.

Results

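The genes described here encode amino acid transporters, taken as all genes of the solute carrier families SLC1, SLC3, SLC6, SLC7, SLC15, SLC36, SLC38 and SLC43 together with Slc16a10, by symbol. Of 14217 genes named by a single-gene probe set on the array, 58 fitted this rule, with 77 probe sets between them. Each gene was represented by its probe set of highest mean signal, and genes were grouped by transport system, the classical naming of carriers by the amino acids they share. The name of the group holds only in part. Slc7a6os takes its symbol from lying opposite Slc7a6 and is not a carrier of that family, the SLC15 genes encode peptide and histidine carriers, several SLC6 genes carry creatine or monoamines, and Slc38a7, Slc38a9, Slc15a3 and Slc15a4 are known mainly from lysosomes rather than the cell surface.

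Liver RNA of male Wistar rats aged 2 months was hybridized to 2 Affymetrix arrays, 1 for each group. Both groups were fasted for 18 h. The fasted rats received no fat meal, and the other rats were given 5 ml of olive oil as a bolus, a dose of 16 ml per kg, and were killed 4 h later. The labels give no number of rats behind either array, no genotype other than the strain, and no hour of killing, so the time without other food may differ between the groups. Every value below therefore compares 1 array with 1 array, without a replicate check, a p-value or a standard deviation over animals.

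Hepatocytes take up amino acids from portal blood for protein synthesis, gluconeogenesis and the urea cycle. Sodium-coupled carriers such as those of system A (alanine, glutamine and other small neutral amino acids) and system N (glutamine, histidine, asparagine) concentrate their substrates in the cell. Facilitators such as the SLC43 carriers of system L and the aromatic carrier let amino acids equilibrate across the membrane. Exchangers swap one amino acid for another, and some light chains of SLC7 reach the membrane only when bound to a heavy chain of SLC3. Transcription of Slc38a2, the inducible gene of system A, is known to respond to amino acid shortage and to hormones.

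Signals of 4 genes, Slc16a10, Slc38a2, Slc43a1 and Slc1a4, were at least 2-fold higher in the olive oil array, and no measured member was 2-fold lower. The starts of these 4 genes are shown because they are the members with the largest differences. The 250 bases upstream of the annotated transcription start are from RefSeq (GRCr8), written 5′ to 3′ on the strand of the gene. Slc16a10 lies at chr20:45122359-45122608 on the minus strand, Slc38a2 at chr7:129742620-129742869 on the minus strand, Slc43a1 at chr3:90327072-90327321 on the plus strand and Slc1a4 at chr14:98761563-98761812 on the minus strand. Capitals mark matches on either strand to TGATGNAA, the core bound by ATF4 and C/EBP dimers, to TGACG, the core of the cyclic AMP response element, to CACGTG, the E-box, and to AGAACA, a half-site of the glucocorticoid receptor.
Slc16a10: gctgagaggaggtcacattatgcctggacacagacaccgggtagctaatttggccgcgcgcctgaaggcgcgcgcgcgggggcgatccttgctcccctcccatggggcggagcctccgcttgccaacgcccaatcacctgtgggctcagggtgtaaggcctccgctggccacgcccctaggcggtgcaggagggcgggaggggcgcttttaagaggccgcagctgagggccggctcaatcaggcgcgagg
Slc38a2: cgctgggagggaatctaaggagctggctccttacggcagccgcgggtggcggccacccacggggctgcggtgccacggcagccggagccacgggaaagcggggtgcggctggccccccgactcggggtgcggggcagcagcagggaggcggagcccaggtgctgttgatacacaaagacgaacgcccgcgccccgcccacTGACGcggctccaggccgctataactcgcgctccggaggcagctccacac
Slc43a1: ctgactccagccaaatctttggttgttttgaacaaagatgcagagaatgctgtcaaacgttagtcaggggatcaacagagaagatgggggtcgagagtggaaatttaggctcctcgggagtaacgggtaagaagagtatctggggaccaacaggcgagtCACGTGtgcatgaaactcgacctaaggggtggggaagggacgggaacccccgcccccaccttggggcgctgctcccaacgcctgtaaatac
Slc1a4: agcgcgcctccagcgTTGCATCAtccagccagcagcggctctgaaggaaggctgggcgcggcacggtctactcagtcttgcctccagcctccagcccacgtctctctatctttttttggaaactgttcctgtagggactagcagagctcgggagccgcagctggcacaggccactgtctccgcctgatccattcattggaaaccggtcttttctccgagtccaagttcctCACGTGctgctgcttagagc

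No motif was common to the 4 windows, and none of the matches overlapped another. Slc1a4 held the ATF4-C/EBP core, on the opposite strand at bases -235 to -228 from the start, and an E-box at -20 to -15. The window of Slc43a1 held an E-box at -91 to -86, that of Slc38a2 the TGACG core at -50 to -46, and that of Slc16a10 none of the letters searched. Of all 33469 windows of this length, 3.40% held TGATGNAA, 18.2% TGACG, 5.59% CACGTG and 17.5% AGAACA. Among the 58 members 45 had an entry, and of these 3 held TGATGNAA, 13 TGACG, 7 CACGTG and 7 AGAACA. A member with several windows was counted when any of them matched, while the shares above count each window. The match of Slc1a4 was the one TGATGNAA match among the 19 measured members with an entry. A match is a run of letters, and no binding was measured. Bases outside the windows, such as those downstream of the start, were not searched. Base composition differed among the 4 windows, from 54.0% G and C in Slc43a1 and 58.8% in Slc1a4 to 68.4% in Slc16a10 and 72.4% in Slc38a2.

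A gene counted as measured when its probe set had a mean log2 signal no lower than the median probe set, which corresponds to an intensity of 41.4. This held for 24 of the 58 members, while 34 were dimmer. Of the 24, 5 were at least 1.5-fold higher in the olive oil array, or 20.8%, where 9.46% of the 9208 measured genes were. At least 1.5-fold lower was 1 of 24, or 4.17%, against 10.1% of all measured genes. When each array was centred on its median log2 signal (median centring), the members split into 5 higher and 4 lower, and 7.61% of all measured genes were higher and 12.7% lower. At 2-fold the counts were 4 higher, or 16.7% against 3.25%, and 0 lower against 2.94%. The median log2 difference, olive oil minus fasted, was 0.16 over the measured members and -0.01 over all measured genes, and 13 of the 24 differences were above 0. Of the 24, 20 were above the limit of 41.4 on both arrays, and these held 4 of the 5 higher genes and 0 lower ones. The share of all genes under that stricter rule was not taken. Slc7a2 and Slc38a9 passed the limit of 41.4 through the array in which they were higher, so that their inclusion is tied to their difference.

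Both arrays had a mean signal of 200 after trimming 2% of values at each end, and their medians were 42.5 (fasted) and 44.7 (olive oil). The log2 differences of probe sets for the same gene varied by 0.35 (pooled SD over 2290 genes), by 0.23 among those past the 75th percentile of signal (853 genes) and by 0.44 among the dimmer measured ones (751 genes), a spread that reflects probe error and holds no variation between rats. Signs of labelling and RNA quality differed too. Of 27 probe sets for poly-A control transcripts, 21 read lower after oil (median of all 27, -0.18 on the log2 scale), and the ratio of 3′ to 5′ signal of beta-actin was 2.63 when fasted and 3.20 after oil. Their part in the differences below was not tested. All 9 hepatocyte markers matched were within 1.5-fold, with summed signals of 134908 and 136870. Neutrophil markers were higher in the olive oil array, S100a9 at 62.9 and 253.1 and S100a8 at 32.0 and 75.7, with Camp below the floor of 12.8 on both arrays, and over the 3 neutrophil markers matched of 6 listed, the summed signals were 101.5 and 331.5. For the other 10 marker lists, the ratio of summed signals, olive oil over fasted, lay between 0.778 (cholangiocytes) and 1.15 (periportal hepatocytes). The part of these cells in the differences below was likewise not tested. In whole tissue a change in the share of a cell type and a change of RNA per cell cannot be told apart.

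**Figure D1:**
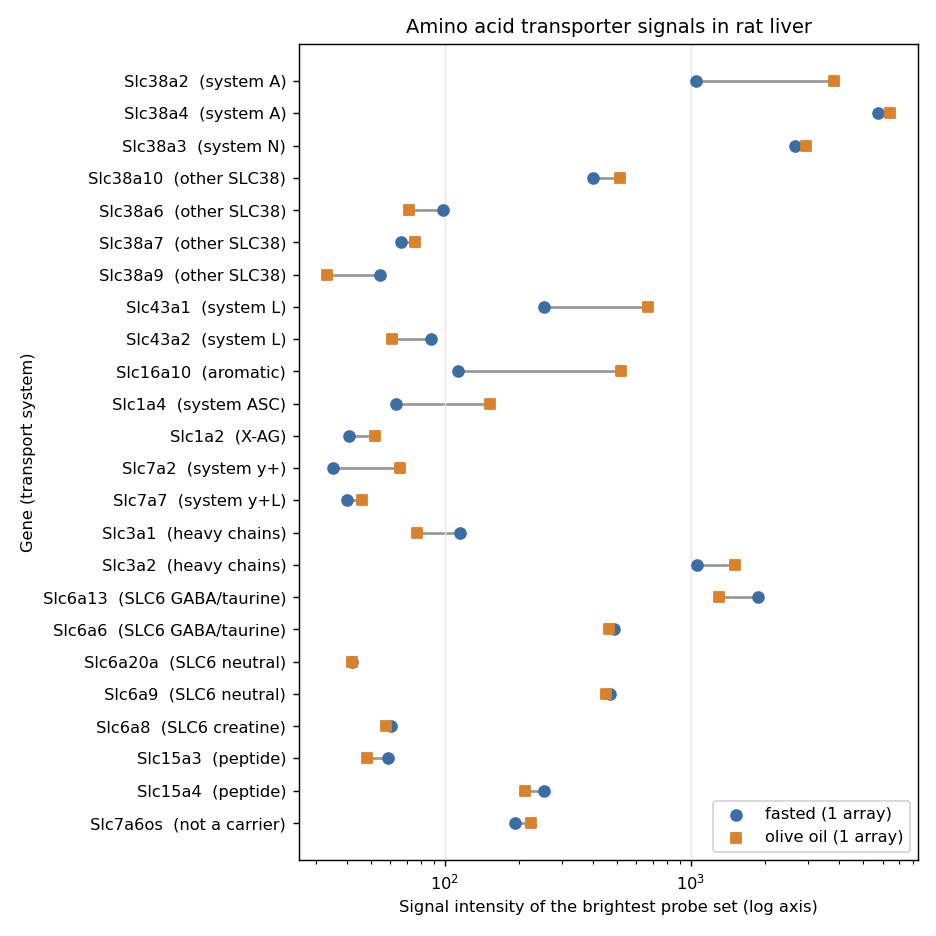
Signal intensity of the 24 measured members on a log axis, with the fasted array as circles and the olive oil array as squares, 1 array each, ordered by transport system. The widest gaps are those of Slc16a10, Slc38a2, Slc43a1 and Slc1a4, while the symbols of Slc38a3, Slc38a4, Slc6a6 and Slc6a9 nearly touch.

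System A was represented by 3 genes, which differed from one another. Slc38a2, which encodes SNAT2, had a fasted signal of 1049 and an olive oil signal of 3809, a 3.63-fold difference. It ranked 47th of 9208 measured genes from the highest log2 difference. Slc38a4, which encodes SNAT4, a carrier found mainly in liver, stood at 5734 and 6451, 1.12-fold higher and within the scatter between probe sets. Slc38a1, the SNAT1 gene of brain and other tissues, was not measured, at 26.5 and 26.4. Within system A the difference was thus that of Slc38a2, with a log2 difference of 1.86 beside 0.17 for Slc38a4.

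Slc38a3, which encodes the glutamine carrier SNAT3 of system N, was close to equal at 2638 and 2919, 1.11-fold higher. Slc38a5, the other system N gene, was dim at 39.2 and 28.4. The other 4 SLC38 genes, all measured, lay on both sides of 0. Slc38a9, a lysosomal arginine sensor of the mTORC1 pathway, was the one measured member at least 1.5-fold lower, at 54.5 and 33.2, 1.64-fold lower. Its olive oil signal was under the limit of 41.4, and with the floor raised to the 50th percentile its log2 difference went from -0.72 to -0.32. Slc38a6 stood at 98.5 and 71.4, Slc38a7, a lysosomal glutamine and asparagine carrier, at 66.2 and 75.9, and Slc38a10 at 398.4 and 514.1, all within 1.5-fold.

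The facilitators of large neutral and aromatic amino acids held 2 of the higher genes. Slc16a10, which encodes TAT1, the carrier of tyrosine, tryptophan and phenylalanine, went from 113.5 to 520.2, 4.58-fold higher and the largest difference of the measured members. It ranked 23rd of all measured genes. Slc43a1, which encodes LAT3, a carrier of branched-chain amino acids, phenylalanine and methionine, went from 252.8 to 670.9, 2.65-fold higher, at rank 113. Its relative Slc43a2, which encodes LAT4, was on the other side of 0, at 88.0 and 60.7, 1.45-fold lower, and a second, dim probe set of Slc43a2 read 41.2 and 17.5. The SLC7 genes of system L, Slc7a5 and Slc7a8, were not measured, at 36.8 and 34.7 and at 11.2 and 10.2.

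**Figure D2:**
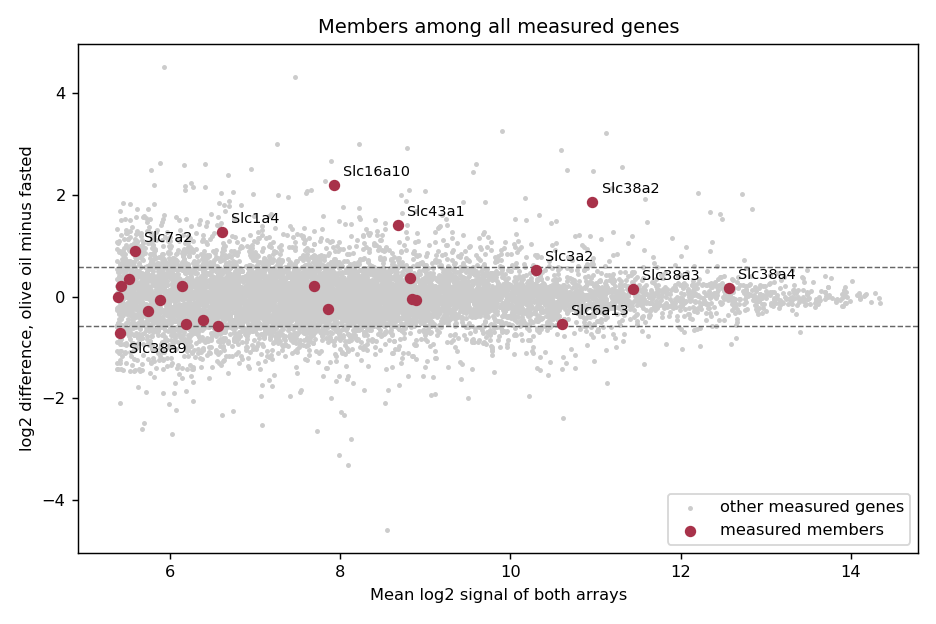
log2 difference, olive oil minus fasted, against mean log2 signal for all 9208 measured genes (grey) and the 24 measured members (red), with dashed lines at 1.5-fold. Slc16a10, Slc38a2, Slc43a1 and Slc1a4 lie in the upper part of the cloud, above most genes of their signal level, and Slc38a3 and Slc38a4 lie inside it.

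Slc1a4, which encodes ASCT1, an exchanger of alanine, serine, cysteine and threonine, had signals of 63.1 and 152.2, 2.41-fold higher, at rank 148. Slc1a5, which encodes the glutamine exchanger ASCT2 of the same system, was dim at 18.6 and 32.8. Both system ASC genes read higher in the olive oil array, but Slc1a5 was below the limit for a measured gene. Among the glutamate and aspartate carriers Slc1a2, the GLT-1 gene of brain and of hepatocytes around the central vein, was measured at 40.8 and 52.0, 1.27-fold higher. Slc1a1 and Slc1a6 did not exceed 21.1 on either array with the probe sets chosen, and the 3 probe sets of Slc1a3 had log2 differences of 0.45, -0.01 and -0.72.

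Cationic carriers were dim throughout. Slc7a2, which encodes CAT2, the arginine, lysine and ornithine carrier whose low-affinity form is known from liver, read 35.2 when fasted and 65.6 after oil, 1.86-fold higher. An offset of 16 in place of the floor brought its log2 difference from 0.90 to 0.67, and the floor at the 50th percentile brought it to 0.59, close to the limit of 1.5-fold. Slc7a1, which encodes CAT1, had 3 probe sets, none measured. One of them read 24.4 and 64.0, 2.62-fold higher. Another had a log2 difference of 0.15, and the last was below the floor, so that the probe sets did not give one value for the gene. Slc7a3, Slc7a4 and Slc7a14 were not measured, at 21.5 or less on both arrays. Of system y+L, which exchanges cationic for neutral amino acids, Slc7a7 stood at 40.2 and 46.1, and Slc7a6 was dim at 28.1 and 14.3.

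The 2 heavy chains differed in direction. Slc3a2 encodes 4F2hc, the partner of the system L, y+L and cystine-glutamate light chains, and went from 1056 to 1512, 1.43-fold higher. Slc3a1 encodes rBAT, the partner of Slc7a9 in kidney and intestine, and went from 115.3 to 77.3, 1.49-fold lower. Both were just inside 1.5-fold, and Slc3a1 was past it, at -0.65, after the signals of each array were centred on their median. The SLC7 light chains that these chains bind were nearly all dim, and Slc7a7 was the one among them that was measured. Slc7a11, the cystine-glutamate light chain, read 3.5 and 3.2, and Slc7a9 read 3.7 and 3.5.

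The SLC6 family, sodium- and chloride-coupled carriers, had 16 genes on the array, of which 5 were measured. All 5 had a log2 difference below 0 under each normalization tried. Of all measured genes, 51.7% had one as reported and 59.1% after median centring. Apart from Slc6a13, the differences as reported lay between -0.007 (Slc6a20a) and -0.07 (Slc6a6), inside the scatter between probe sets. The sign did not hold for Slc6a6 with the mean over its probe sets, at 0.07, nor for Slc6a20a with the floor at the 50th percentile, at 0. None was 1.5-fold apart, although Slc6a13 was after median centring. Slc6a13, which encodes GAT2, a carrier of GABA and taurine present in hepatocytes, had the largest difference, from 1870 to 1294, 1.45-fold lower. Slc6a6, the taurine carrier gene, stood at 487.5 and 464.6, and its pair of probe sets gave log2 differences of -0.07 and 0.22. Slc6a9, which encodes the glycine carrier GlyT1, stood at 470.2 and 451.9. Its 3 probe sets read -0.06, -0.14 and -0.93 on the log2 scale, the last of them with a suffix for several transcripts of the gene. Slc6a8, the creatine carrier gene, gave 60.2 and 57.5 on one probe set and 55.8 and 14.7 on another, which was not measured. Slc6a20a, one of the rat copies of the imino acid carrier gene Slc6a20, was nearly equal at 42.1 and 41.9.

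**Figure D3:**
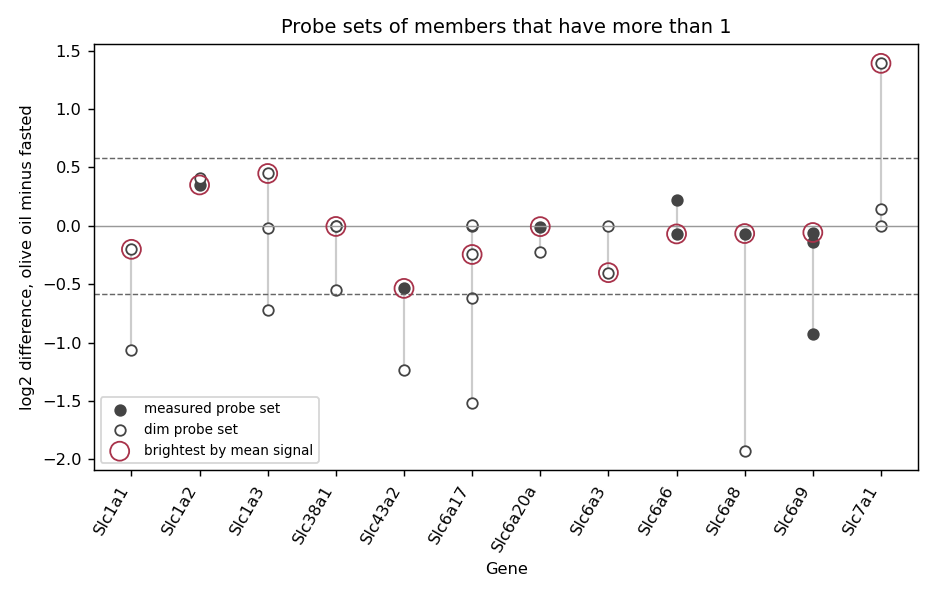
log2 difference, olive oil minus fasted, of every probe set of the 12 members with more than 1 probe set. Filled points are measured probe sets, open points dim ones, and red rings mark the probe set that stands for the gene. The dim probe sets of Slc6a8, Slc7a1 and Slc43a2 lie far from or beyond the others of their gene, while Slc6a9 spreads from -0.06 to -0.93 on measured probe sets.

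All 6 members at least 1.5-fold apart had 1 probe set each, so that their differences have no second probe set to compare. Of the 24 measured members, only Slc6a6 and Slc6a9 had more than 1 measured probe set. The scatter between probe sets of other genes is the error at hand. Slc16a10, Slc38a2 and Slc43a1, with log2 differences of 2.20, 1.86 and 1.41, belong to the 12 members past the 75th percentile, where it was 0.23. Slc1a4, Slc7a2 and Slc38a9, at 1.27, 0.90 and -0.72, belong to the dimmer members, where it was 0.44. The 18 members within 1.5-fold by at most 1.49-fold in either direction.

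The peptide and histidine carriers Slc15a3 and Slc15a4 were within 1.5-fold, at 58.9 and 48.4 and at 252.8 and 211.8, both lower in the olive oil array. Slc15a1 and Slc15a2, the peptide carriers of intestine and kidney, were below the floor of 12.8 on both arrays. None of the 3 proton-coupled SLC36 genes was measured, and Slc36a2 had the largest of their signals, 13.1 and 24.3. Of the 34 members that were not measured, 14 were below the floor on both arrays and the highest signal of any was 64.0. Slc6a7, a proline carrier gene of brain, had the widest gap of these dim genes once the floor was applied, 58.7 and 19.4, and was left out of every count above. Slc7a6os stood at 193.3 and 222.9.

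Other genes of amino acid handling were placed beside the transporters in 4 lists, which overlap. Sesn2 was counted in both the amino acid response and the sensing to mTORC1. Gpt2 was counted in both the response and the enzymes. The amino acid response, in which the kinase Eif2ak4 (GCN2) and the factor ATF4 induce carriers and synthetic enzymes when amino acids are short, had 21 of 26 genes measured. At least 1.5-fold higher were 6 of them, or 28.6% against 9.46% of all measured genes. After median centring 5 of the 21 were, where 7.61% of all measured genes were. At least 1.5-fold lower were 2, or 9.52% against 10.1%, close to the share of all genes. The 5 genes not measured stayed out of these counts. They were Atf3 (56.5 fasted and 14.1 after oil), Mthfd2 (33.6 and 4.9), Aldh18a1 (30.7 and 15.3), Jdp2 (31.4 and 30.2) and Phgdh (21.1 and 30.2). The median log2 difference of the 21 measured genes was 0.05, or -0.03 after median centring. Asns, asparagine synthetase and a standard ATF4 target, was dim in the fasted array at 29.7 and read 72.4 after oil, 2.44-fold higher, and so passed the limit of 41.4 through the array in which it was higher. Cebpb, a partner of ATF4, went from 1514 to 3669, 2.42-fold higher. Atf4 itself stood at 1825 and 2503, 1.37-fold higher. Nupr1 was 1.84-fold and Trib3 1.74-fold higher, the latter with log2 differences from 0.26 to 1.34 over 3 probe sets. The list did not run in one direction. Eif2ak4 itself was 1.67-fold lower, at 151.9 and 91.2, and Sesn2, an ATF4 target that restrains mTORC1, was 1.57-fold lower. The ATF4 targets Chac1 and Ddit3 read lower after oil, within 1.5-fold, at 303.0 and 243.1 and at 166.9 and 128.5.

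Among 12 measured partners and regulators of transporters, 2 were at least 1.5-fold higher, or 16.7% against 9.46% of all measured genes, and 3 lower, where 10.1% of all measured genes were, with a median of -0.03. After median centring 1 was higher and 3 were lower, where 7.61% of all measured genes were higher and 12.7% lower. Nherf1, a scaffold of membrane carriers, was 1.77-fold higher, and Klf15, a factor that induces amino acid breakdown in fasting, 1.54-fold higher, under 1.5-fold after median centring. Sgk1, a kinase known to raise the surface level of several carriers, went from 1230 to 626.0, 1.96-fold lower. Its relative Sgk2 was 3.63-fold lower, from 139.0 to 38.3, and passed the limit of 41.4 through the fasted array. Nedd4l, a ubiquitin ligase that removes carriers from the surface, was at 333.3 and 432.8, and the glucagon receptor gene Gcgr was 1.63-fold lower.

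Of 22 measured genes that signal amino acid supply to mTORC1, 2 were at least 1.5-fold higher, or 9.09% against 9.46% of all measured genes, and 4 lower, or 18.2% against 10.1%, with a median of -0.02. After median centring 1 was higher and 5 were lower, where 7.61% of all measured genes were higher and 12.7% lower. Rraga, a Rag GTPase that recruits mTORC1 to the lysosome, was 1.72-fold higher. Flcn and Fnip2, which act together on the Rag GTPases, were 1.69-fold and 1.85-fold lower, although another probe set of Fnip2 read -0.16 on the log2 scale. Sesn1, a sestrin that restrains mTORC1, was 3.13-fold lower on one probe set and at 0.10 on another. Slc38a9, the lysosomal arginine sensor of the mTORC1 pathway among the transporters, was lower as given above.

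Enzymes that use the carried amino acids had 18 of 23 differences above 0, where 48.3% of all measured genes had, and 15 of 23 against 40.9% after median centring. The median was 0.28. Of the 23, 5 were at least 1.5-fold higher, or 21.7% against 9.46% of all measured genes, and 1 was lower, or 4.35% against 10.1%. Sds, which breaks down serine, a substrate of ASCT1 and SNAT2, was 9.30-fold higher. Got1, which transfers the amino group of aspartate, was 4.08-fold higher, at 2337 and 9525. Tat, which begins tyrosine breakdown, went from 3068 to 6020, 1.96-fold higher. A link between the enzymes and the carriers of their substrates was not tested. Bhmt, which remethylates homocysteine with betaine, was 1.86-fold higher. Glul, glutamine synthetase, stood at 1809 and 2160, 1.19-fold higher. Of the 9 markers of the periportal zone, known for amino acid breakdown, 6 were within 1.5-fold. Sds was higher but Cdh1 and Hsd17b13 were 2.70-fold and 2.07-fold lower.

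**Figure D4:**
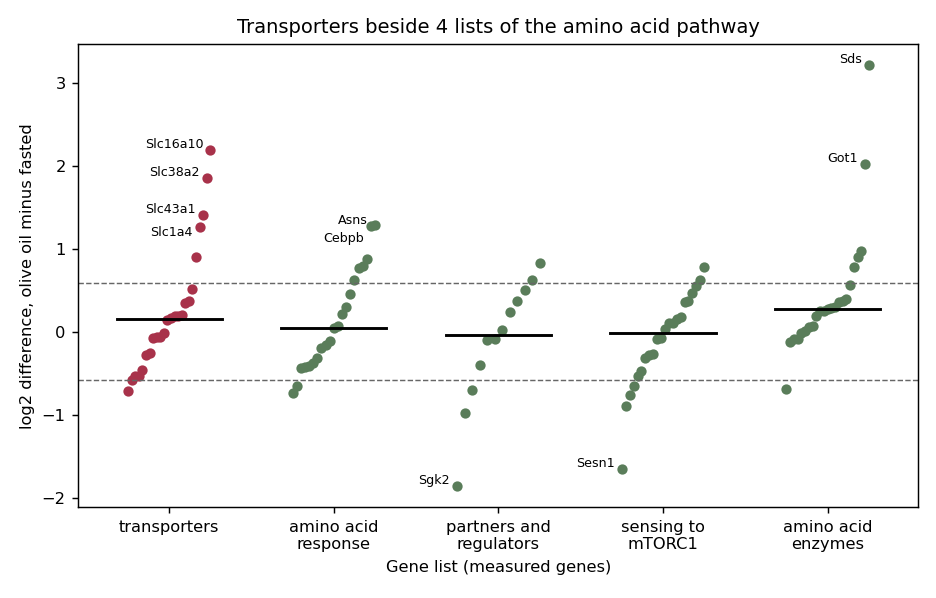
log2 difference, olive oil minus fasted, of the measured members and of the measured genes of 4 lists, each point 1 gene, with black bars at the medians and dashed lines at 1.5-fold. The medians are 0.16 for the transporters, 0.05, -0.03 and -0.02 for response, regulators and sensing, and 0.28 for the enzymes.

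The size of the larger differences depended little on the normalization and the floor. The filter and the probe set rules cannot change a value of these genes, which have 1 probe set each. Over the settings tried, the log2 difference of Slc16a10 lay between 2.05 and 2.22, that of Slc38a2 between 1.79 and 1.87, that of Slc43a1 between 1.34 and 1.43 and that of Slc1a4 between 1.09 and 1.27. That of Slc7a2 lay between 0.59 and 0.90 and that of Slc38a9 between -0.79 and -0.32. A filter at the 75th percentile left 12 members measured, with 3 higher (Slc16a10, Slc38a2 and Slc43a1).

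**Figure D5:**
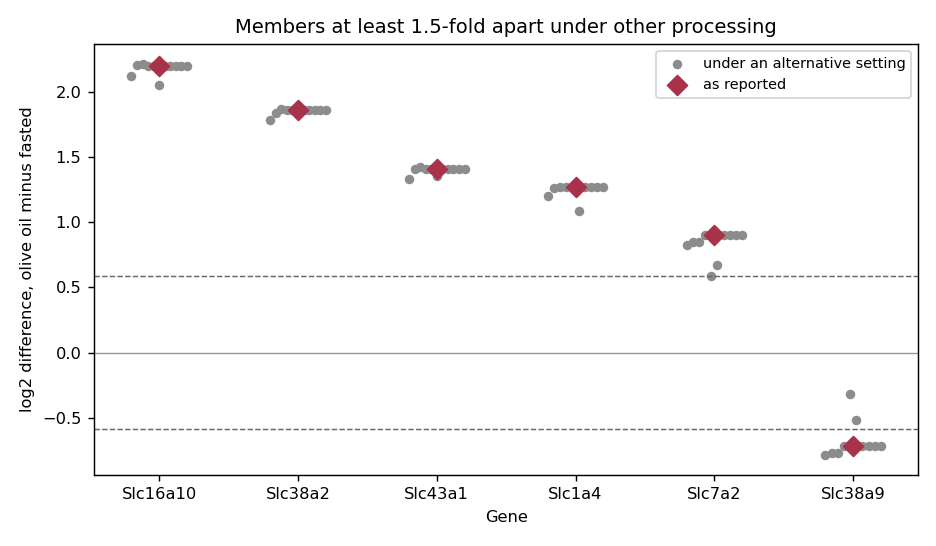
log2 difference, olive oil minus fasted, of the 6 members at least 1.5-fold apart, as reported (diamonds) and under each alternative setting in which the gene was measured (grey points), with dashed lines at 1.5-fold. The 4 highest genes stay above the line in every setting, Slc7a2 comes down to it, and Slc38a9 crosses it in 2 settings.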

How the data were processed

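Total liver RNA was labelled with biotin by the standard Affymetrix procedure, per the labels' protocols. The authors deposited linear signal intensities, 1 value for each probe set of each array. The submitters' processing notes name Affymetrix Expression Console, while the summary algorithm, version and filters were not stated. Equal trimmed means of both arrays point to a common scaling, under which a shift of most transcripts would not be seen. No detection calls were used, and the number of arrays limits the precision.

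Of 31042 probe sets, besides 57 controls, 20826 had 1 gene in the annotation of the platform (of an older date), 436 several and 9780 none listed. RefSeq (GRCr8) held the gene IDs of 20758 of the 20826 and gave their present symbols. Signals below the 25th percentile, 12.8, were raised to it before the log2 was taken, and 15521 probe sets at or above the median mean log2 of 5.37 counted as measured. No test can be run on 1 array a group, so fixed sizes of 1.5-fold and 2-fold were used. The members, lists and sizes were chosen with earlier results of these data known. The text names every measured member. From each of the 4 lists it names up to 4 genes of largest difference, with 6 genes whatever their value. Eif2ak4, Sesn2, Chac1, Ddit3, the unmeasured genes of the amino acid response and the periportal markers were named after their values were seen. Markers of 11 cell types were listed. Those of neutrophils and of the periportal zone at least 1.5-fold apart are named in the results, picked by their values. The other measured markers that far apart were Tbx3, Lyve1, Acta2 and Dcn, higher after oil, and Stab1 and Lrat, lower. The lists are given as summed signals or as a ratio of sums. Functions were tested on simulated data with 200 changed probe sets. Alternatives were other normalizations, floors, filters, probe set rules, memberships and sizes. Software was numpy 2.4.6, pandas 2.3.3, statsmodels 0.14.6 and matplotlib 3.10.9 under Python 3.11.15.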

Additional observations from a re-analysis of the deposited data

How the results depend on the processing

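Under the settings tried, 5 members were at least 1.5-fold higher with every normalization, floor and probe set rule and with amino acid carriers alone. The count was 3 with a filter at the 75th percentile and 10 of 58 without a filter, where dim genes enter. It was 2 at 3-fold, a size for which no share of all genes was taken. Of all genes 7.01% were higher and 7.43% lower with the 75th percentile filter, and 12.8% and 12.4% without a filter. The count at least 1.5-fold lower, 1 as reported, was 4 with the arrays centred on their medians, which added Slc3a1, Slc43a2 and Slc6a13. It was 0 with an offset of 16, with the floor raised to the 50th percentile, with the 75th percentile filter, at 2-fold and at 3-fold, and 7 of 58 without a filter, near the share of all genes. Centring moved the median of all measured genes from -0.01 to -0.09 and that of the members from 0.16 to 0.085; all measured genes were then 7.61% higher and 12.7% lower. The members' median was 0.00 without a filter, since 14 genes lie at the floor on both arrays, and between 0.11 and 0.19 under the other settings. Taking the brightest probe set by mean log2, and leaving out Slc7a6os, were chosen after seeing the data and changed no count. Of 251 values of single members under other settings, 250 moved by less than the probe set scatter of 0.35. The exception was Slc38a9 with the higher floor (-0.32), and none of the called values changed sign. Many of the 251 could not move. Removing the floor and changing the filter leave the value of a measured member as it was, as do the probe set rules for members with 1 measured probe set. No paired analysis was possible because each group is 1 array.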
